A study of Rattus norvegicus with 4 samples.

Results

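The genes described here were neuropeptide precursors and neuropeptide receptors in the prefrontal cortex of newborn rats exposed to bisphenol A (BPA) before birth. Members were the rows whose gene symbol equals 1 of 45 listed symbols, 23 precursors and granins and 22 receptors. Of these, 43 were found among all 17419 rows of the 4 libraries, 21 precursors and granins and 22 receptors, and each had a single row. Penk-rs and Rln3 had no row, and Oxt had one in the female libraries only.

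Neuropeptides are made as larger precursors that enter dense-core vesicles, are cut at basic residues by prohormone convertases and trimmed by carboxypeptidase E, and act on G protein-coupled receptors. The granins (Chga, Chgb, Scg2, Vgf) are cargo of the same vesicles and are themselves cut into peptides. In the cortex, somatostatin, neuropeptide Y, vasoactive intestinal peptide and cortistatin are best known from GABA neurons, and cholecystokinin from both GABA and projection neurons.

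Pregnant dams were Wistar by the labels and Wistar Furth by the paper's methods. They received BPA, an endocrine disruptor, at 5000 µg/kg of maternal body weight, or vehicle only, every day from gestational day 1 until birth. Frontal cortex of the offspring, dissected as prefrontal cortex by the paper's methods, was collected on postnatal day 1 by the labels, and polyadenylated RNA was sequenced. There was 1 library for each of 4 groups, the control and the BPA male and the control and the BPA female. The paper's methods give 3 pups per sex and treatment without stating whether a library pooled them. A p-value over these libraries therefore measures only the spread between them, which holds any difference between the sexes and may be technical. The values are FPKM, fragment levels adjusted for transcript length and library depth. The 4 values of a gene are given below with males before females and, in each sex, control before BPA.

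Depth was estimated from the steps in which the FPKM of scarce rows move, at 8959250 to 9261250 fragments per library, and the median FPKM of all rows lay between 5.91 and 6.52. Of 12 listed markers of cortical projection neurons, all 12 were at 1 FPKM or more in every library. Libraries of the 2 treatments differed in markers of neighbouring tissue. All 14 markers of meninges and vessel wall were lower with BPA in both sexes (summed 494, 228, 642 and 159 FPKM), as were 5 of the 6 listed markers of the olfactory bulb (56.9, 19.6, 59.2 and 17.6 FPKM), whereas 10 of 15 markers of striatal projection neurons were higher with BPA in both sexes (109, 165, 114 and 175 FPKM). In limma, described below, genes of these lists that passed at an adjusted p below 0.05 were the meningeal Col1a1, Col1a2, Col3a1, Dcn, Igf2 and Slc22a6, the olfactory Cdhr1 (41.1, 10.8, 44.5 and 9.29 FPKM) and Cpa3, 1 of 4 mast cell markers (summed 25.0, 22.5, 25.1 and 20.4 FPKM, 2 lower and 1 higher in both sexes), all lower with BPA, and the striatal Rxrg and Penk, both higher. Lum (lower) and Ebf1 (higher) were past 2-fold in both sexes without passing, and Tbx21, past 2-fold lower in both, was outside the fit. Of the projection neuron markers, the glutamate transporter gene Slc17a7 fell and Neurod2 rose. In bulk tissue, fewer cells of a type and less RNA per cell cannot be told apart.

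The full cAMP response element, the 8 bases TGACGTCA, was carried by 5 members in the promoter window of 300 bases that RefSeq gives on the assembly GRCr8, from 250 bases before to 50 after a gene's start. This element binds CREB and was described early in the somatostatin promoter. The 60 bases around each element are shown because these members are the ones compared by promoter below. Each is written 5′ to 3′ on the gene's own strand, and capitals mark the element.
Cartpt, chr2:32991344-32991403, minus strand: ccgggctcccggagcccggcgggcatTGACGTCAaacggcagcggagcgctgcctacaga
Scg2, chr9:88256956-88257015, minus strand: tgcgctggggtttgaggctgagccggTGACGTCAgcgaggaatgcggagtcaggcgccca
Sst, chr11:90461522-90461581, plus strand: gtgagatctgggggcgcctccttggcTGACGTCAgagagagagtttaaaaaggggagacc
Sstr2, chr10:99163254-99163313, plus strand: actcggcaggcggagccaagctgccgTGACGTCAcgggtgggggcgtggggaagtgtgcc
Vgf, chr12:25277077-25277136, minus strand: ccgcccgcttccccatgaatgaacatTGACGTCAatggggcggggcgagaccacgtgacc
The element began 142 bases before the start that RefSeq gives in Cartpt, 123 in Scg2, 90 in Vgf and 73 in Sstr2, and 3 bases after it in Sst. These starts are annotated, and where transcription begins in this tissue was not measured. TGACGTCA, which reads the same on both strands, occurred in 5 of 38 promoters of members (13.2%), 4 of 16 precursors and granins and 1 of 22 receptor promoters, and in 612 of all 33469 promoters (1.83%). The shorter core TGACG, searched on both strands and contained in TGACGTCA, occurred in 20 promoters of members (52.6%) and in 21.2% of all promoters. A match is a description of the letters and not a binding site. Cck, Chga, Crh, Oprk1, Oprl1, Pnoc and Tac3 had no entry among these promoters.

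Of the 43 members, 25 reached 1 FPKM in every library (15 precursors and granins and 10 receptors), and 33 in at least 1 library. The 10 that stayed below 1 FPKM wherever they were listed were Oxt and the receptors Npy5r, Oprk1, Oprd1, Oxtr, Avpr1a, Vipr1, Ntsr2, Galr1 and Tacr3. Per length, the precursor pool was dominated by a few genes. Npy, Sst and Cck together made up 81.3, 81.1, 81.6 and 85.4% of the summed FPKM of the 17 listed precursors other than granins. Among the 22 receptors, Adcyap1r1, Sstr1, Ntsr1 and Oprl1 together made up 68.7, 72.9, 70.6 and 72.1%. The summed FPKM of all precursors and granins was 449, 415, 444 and 448, and that of all receptors 151, 147, 153 and 146.

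**Figure D1:**
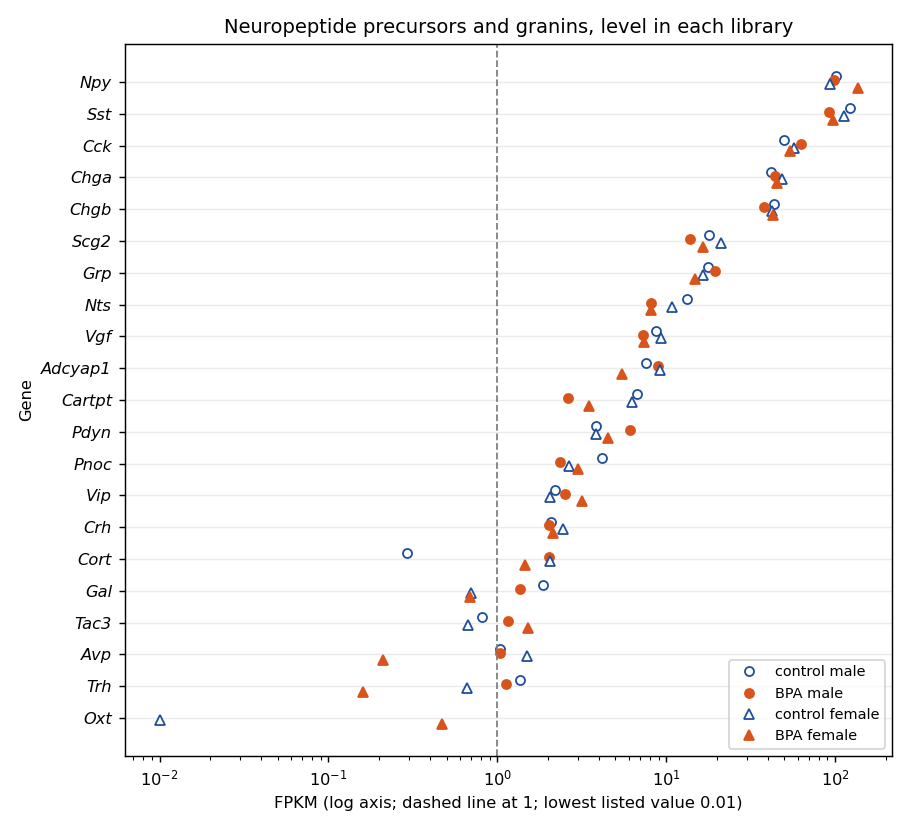
FPKM of each listed precursor and granin (log axis) in the 4 libraries, with circles for males, triangles for females, open symbols for control and filled for BPA, and a dashed line at 1 FPKM. Sst and Npy lead in every library at 91.8 FPKM or more, both BPA libraries of Sst, Nts, Scg2 and Cartpt lie left of both controls, and Oxt lies below the line.

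Which members differed between BPA and control was asked within each sex and with the sexes as the 2 samples of each treatment. With 1 library per sex and treatment there is no replicate check within a sex. A member was there counted as called when log2(FPKM + 0.5) differed by at least 1 (2-fold on that scale), and such a comparison is of those libraries, not of the conditions. In males, 1 of 42 members, Cartpt, was past 2-fold lower, where 2.53% of all rows were (1.15% of rows with a Gene ID), and 1, Cort, was past 2-fold higher, where 1.75% of all rows were (0.341% with a Gene ID). In females, Avp was past 2-fold lower, 1 of 43 members, where 3.51% of all rows were (2.18% with a Gene ID), and 0 members were past 2-fold higher, where 1.64% of all rows were (0.251% with a Gene ID). The median log2 ratio of BPA to control over the members was -0.05 in males and -0.10 in females, beside -0.04 and -0.05 over all rows.

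With the sexes as the 2 samples of a treatment, limma on log2(FPKM + 0.5) was run on 13163 genes with a mean FPKM of at least 1, which included 31 members, 18 precursors and granins and 13 receptors. None of the 31 members had a Benjamini-Hochberg adjusted p below 0.05, where 0.562% of all genes did. An unadjusted p below 0.05 was found for 6, where 17.3% of all genes had one, and all 6 were lower with BPA, where 12% of all genes were lower at that p. These were Cartpt, Sst, Nts, Sstr4, Scg2 and Vgf. When only the 10632 genes with an NCBI Gene ID were fitted, Cartpt, Sst and Nts passed the adjusted threshold and were lower, 3 of 31 members, where 3.79% of those genes passed and were lower, so these calls depend on which genes were fitted. The median limma log2 difference was -0.04 for the 31 members and -0.04 for all genes, while the median absolute difference was 0.21 for the members and 0.14 for all genes.

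Both BPA libraries were below both controls for 8 of the 31 members (25.8%) and above both for 4 (12.9%), where 31.9% and 18.7% of all genes were. The 8 were Cartpt, Sst, Nts, Scg2, Vgf, Npy1r, Sstr4 and Crhr1, and the 4 were Vip, Pdyn, Tac3 and Sstr3. With BPA, 11 members were lower in both sexes, 6 were higher in both and 14 went in opposite directions in males and females, where 40.1% of all genes were lower and 25.9% higher in both sexes. 

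**Figure D2:**
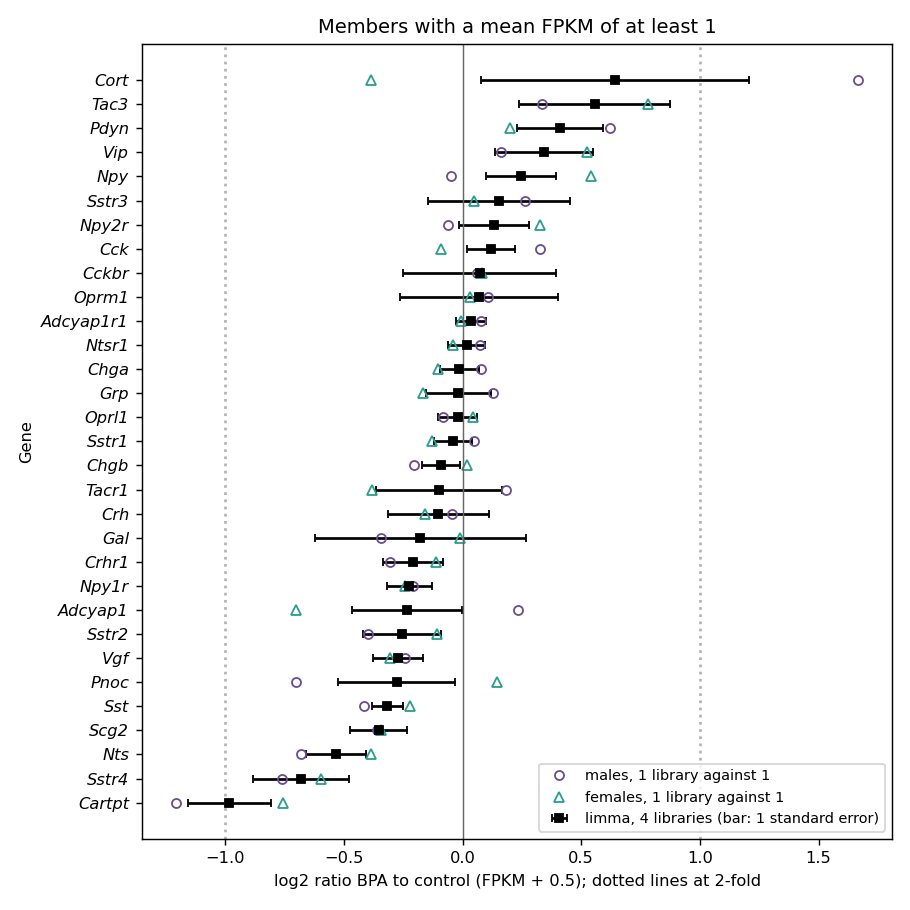
Log2 ratio of BPA to control, on FPKM + 0.5, for the 31 members with a mean of at least 1 FPKM, with circles for males, triangles for females, and squares with bars for the limma difference over the 4 libraries and its standard error. Dotted lines mark 2-fold, Cartpt lies furthest left, and the limma difference of every member lies between -0.98 and 0.64.

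Among the precursors, Sst (Gene ID 24797), which encodes the inhibitory peptide somatostatin, was at 122, 91.8, 113 and 97.0 FPKM. Both BPA libraries were below both controls. Its log2 ratio was -0.41 in males, with a 95% interval on the estimated fragments of -0.58 to -0.25, and -0.22 in females, with an interval of -0.39 to -0.05. Such intervals compare fragments per depth with an exact binomial and cover counting error only. The limma difference was -0.32 with a standard error (SE) of 0.07 and an adjusted p of 0.111, and the adjusted p was 0.0309 when only genes with a Gene ID were fitted. As a share of the 17 precursors other than granins, Sst took 36.3, 29.4, 35.0 and 28.9%. Sst is made by GABA neurons, and beside it the summed markers of cortical GABA neurons were 337, 305, 333 and 304 FPKM. All 17 listed markers were at 1 FPKM or more in every library. Of these, 5 (29.4%) were lower and 4 (23.5%) higher in both BPA libraries than in both controls, where 31.9% and 18.7% of all genes were. Their limma differences were above 0 in 9 and below 0 in 8, with a median of 0.00. Calb2, which encodes calretinin and is part of the sum, fell (40.0, 17.2, 34.0 and 14.4 FPKM; limma adjusted p 0.0274). With Gene ID genes only, 3 of the 17 passed and were lower, where 3.79% of those genes were, and 0 were higher. Beside Calb2 these were Gad1 (adjusted p 0.0353) and Dlx1 (0.0287), named after their values were seen. The part of these markers in the values of Sst was not tested.

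Cartpt (Gene ID 29131), the precursor of the CART peptides of feeding and reward circuits, was at 6.71, 2.62, 6.26 and 3.50 FPKM, from an estimated 85, 33, 76 and 43 fragments. The control libraries were close to each other and both BPA libraries were below them. Its log2 ratio was -1.21 in males and -0.76 in females, and the counting intervals of the fragment ratio, -1.98 to -0.76 and -1.40 to -0.27, excluded 0 in each sex. The limma difference of -0.98 (SE 0.17) had an adjusted p of 0.0800 over all genes and 0.0115 with Gene ID genes only. Without each library in turn, it ranged from -1.16 to -0.80.

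Nts, which encodes neurotensin, was at 13.3, 8.11, 10.8 and 8.12 FPKM. The BPA libraries were nearly equal and below both controls. The log2 ratio was -0.68 in males (counting interval -1.23 to -0.22) and -0.38 in females (-0.94 to 0.13), and the limma difference was -0.53 (SE 0.13, adjusted p 0.133, or 0.0427 with Gene ID genes only). The markers of meninges, olfactory bulb and striatum given above differed between the same libraries as Sst, Cartpt and Nts, and their part in these values was not tested.

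Npy (Gene ID 24604), which encodes neuropeptide Y, was at 102, 98.1, 93.1 and 136 FPKM. BPA female was the highest, and the other 3 libraries lay together. Its log2 ratio was -0.05 in males (counting interval -0.24 to 0.14) and 0.54 in females (0.36 to 0.73). The male ratio minus the female ratio was -0.59, with a counting interval of -0.85 to -0.34, and no replicate library within a sex and treatment allows a test of that difference. In limma the difference over both sexes was 0.25 (SE 0.15, adjusted p 0.430), or 0.01 without BPA female and 0.48 without BPA male. Of the precursors other than granins, Npy took 30.1, 31.5, 28.8 and 40.5%. Npy was above Sst in both BPA libraries and below it in both controls.

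Cck, which encodes cholecystokinin, was at 50.1, 63.0, 57.2 and 53.8 FPKM. BPA male was the highest and the groups overlapped (log2 ratio 0.33 in males, counting interval 0.11 to 0.56, and -0.09 in females, -0.32 to 0.14; limma 0.12, SE 0.10, adjusted p 0.582). Adcyap1, the precursor of the peptide PACAP and singled out after its values were seen, was at 7.56, 8.97, 9.21 and 5.46 FPKM. BPA female was the lowest and the other libraries lay together. The male minus the female log2 ratio of its fragments was 1.00, with a counting interval of 0.38 to 1.63, and as for Npy the data hold no replicate to test it. The limma difference of Adcyap1 over both sexes was -0.24 (SE 0.23, adjusted p 0.634).

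Vip, which encodes vasoactive intestinal peptide, was at 2.20, 2.52, 2.05 and 3.17 FPKM, and both BPA libraries were above both controls (log2 ratio 0.16 in males and 0.53 in females; limma 0.34, SE 0.21, adjusted p 0.435, or 0.20 to 0.48 when 1 library was left out). Its counting intervals in males (-0.56 to 0.95) and in females (-0.10 to 1.38) included 0. Crh, which encodes corticotropin-releasing hormone, was at 2.09, 2.01, 2.46 and 2.15 FPKM, and the groups overlapped (limma -0.10, SE 0.21, adjusted p 0.831). Pdyn, the precursor of the dynorphins and singled out after its values were seen, was at 3.82, 6.14, 3.85 and 4.49 FPKM, with both BPA libraries above both controls. Its log2 ratio was 0.62 in males (counting interval 0.28 to 1.10) and 0.20 in females (-0.22 to 0.66), and limma gave 0.41 (SE 0.18, adjusted p 0.307). The part of the striatal markers given above in the values of Pdyn was not tested. Pnoc, the precursor of nociceptin and also chosen after its values were seen, went in opposite directions in the sexes, at 4.14, 2.35, 2.67 and 3.01 FPKM (adjusted p 0.596 in limma).

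**Figure D3:**
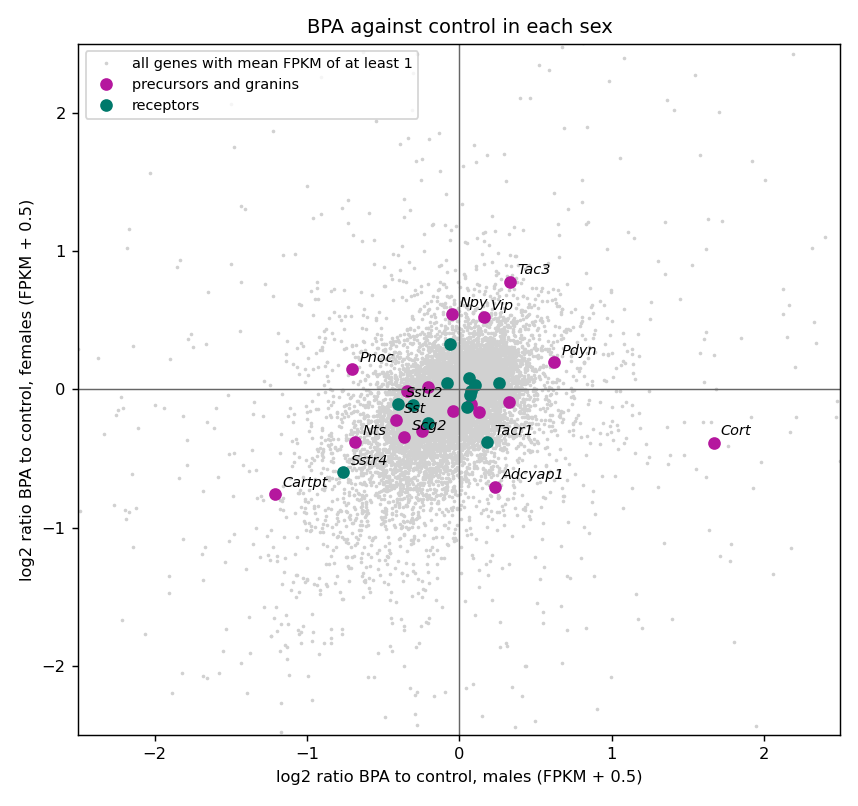
Log2 ratio of BPA to control (FPKM + 0.5) in males on the horizontal axis and in females on the vertical axis, for 13163 genes with a mean of at least 1 FPKM (grey; 125 genes beyond the axes are not drawn), with 31 members in colour. Cartpt, Sstr4, Nts and Sst lie below 0 on both axes, Npy lies above 0 for females only, and Cort and Adcyap1 lie above 0 for males and below 0 for females.

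Several precursors were too scarce for a ratio to be read. Cort, the precursor of cortistatin, a relative of somatostatin, was at 0.29, 2.01, 2.06 and 1.46 FPKM, from an estimated 1, 7, 7 and 5 fragments. Control male alone was low. Its log2 ratio of 1.67 in males had a counting interval of the fragment ratio from -0.14 to 8.31, and its limma difference was 0.64 (SE 0.57, adjusted p 0.593), which turned to -0.21 without control male and reached 1.49 without control female. Avp, which encodes vasopressin, was at 1.03, 1.03, 1.49 and 0.21 FPKM, from 5, 5, 7 and 1 fragments. BPA female alone was low, and the interval of the female fragment ratio, -8.31 to 0.15, included 0. Tac3, which encodes neurokinin B, was at 0.81, 1.15, 0.67 and 1.51 FPKM, from 4 to 9 fragments, and both BPA libraries were above both controls (limma 0.56, SE 0.32, adjusted p 0.411). Oxt, which encodes oxytocin, was at 0.01 in control female, the lowest value the files hold, and at 0.47 in BPA female, from an estimated 2 fragments. At these counts no difference was detected in these 4. Vasopressin and oxytocin are made mainly in the hypothalamus, and of 13 listed hypothalamic markers 9 had a row and each stayed below 1 FPKM in every library.

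**Figure D4:**
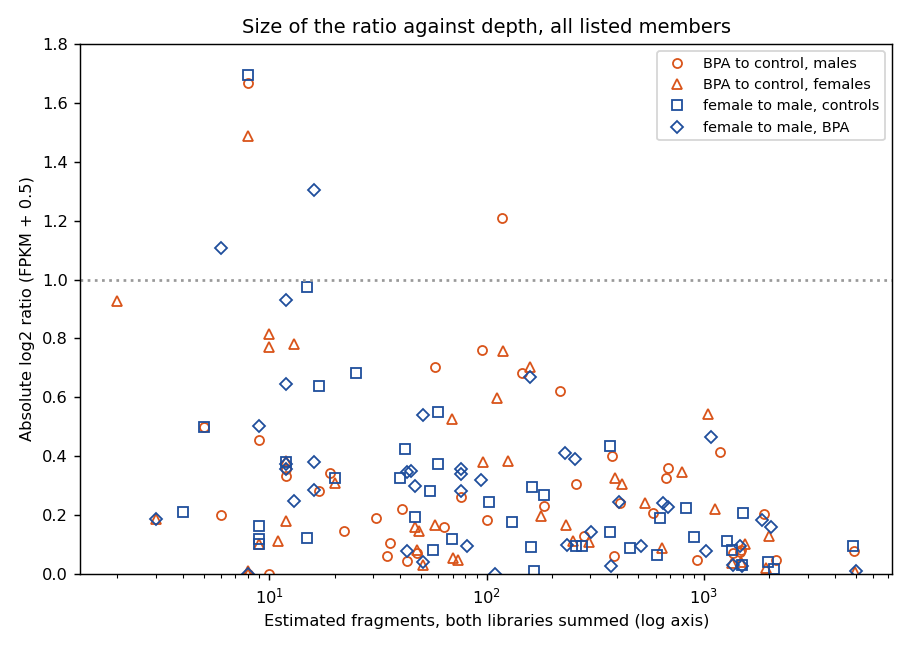
Absolute log2 ratio (FPKM + 0.5) of each listed member against the estimated fragments summed over the 2 libraries compared (log axis), for BPA to control in males and in females and for female to male within each treatment, with a dotted line at 2-fold. Of the members with 100 fragments or more, only Cartpt in males is past the line, at 1.21, and the other ratios past it come from scarce members.

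Libraries of the same treatment and of different sex also differed. With treatment as the only term, this is the same spread that limma used above, and it holds any difference between the sexes. These comparisons share their libraries with those of BPA to control. Between control female and control male, 1 of 42 members (Cort) was past 2-fold higher, where 1.69% of all rows were (0.391% of rows with a Gene ID), and between BPA female and BPA male 2 were past 2-fold lower (Avp and Trh), where 1.65% of all rows were (0.499% with a Gene ID). Over the 31 members with a mean of at least 1 FPKM, the median absolute log2 ratio was 0.23 for BPA to control in males and 0.17 in females, beside 0.14 for female to male in controls and 0.24 for female to male with BPA. For members with at least 100 fragments, the highest absolute ratio was 1.21 in males and 0.76 in females (both Cartpt), 0.43 between the control libraries (Sstr2) and 0.67 between the BPA libraries (Adcyap1).

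Of the granins, Scg2 (secretogranin II) was at 17.9, 13.9, 21.1 and 16.5 FPKM. Both BPA libraries were below both controls (log2 ratio -0.36 in males, counting interval -0.60 to -0.15, and -0.35 in females, -0.56 to -0.15; limma -0.35, SE 0.12, adjusted p 0.227, or -0.47 to -0.23 when 1 library was left out). Vgf, cargo of the same vesicles and singled out after its values were seen, was at 8.69, 7.27, 9.28 and 7.42 FPKM, with both BPA libraries below both controls (limma -0.27, SE 0.11, adjusted p 0.264). Chga (chromogranin A) was at 42.0, 44.3, 48.6 and 45.2 FPKM and Chgb (chromogranin B) at 43.7, 37.8, 42.5 and 43.1 FPKM. In both chromogranins the groups overlapped, and the limma difference was -0.01 (SE 0.08, adjusted p 0.95) for Chga and -0.09 (SE 0.08, adjusted p 0.587) for Chgb.

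The receptors had smaller differences than the precursors. The median absolute limma difference was 0.10 over the 13 receptors and 0.28 over the 18 precursors and granins, with no test between these lists, whose depths differ. The most abundant receptor, Adcyap1r1, the PACAP receptor, was at 42.2, 44.5, 45.1 and 44.9 FPKM. The 4 libraries lay together (limma 0.04, SE 0.06, adjusted p 0.812), and in females, where its ligand's level was lowest with BPA, the counting interval of the receptor's ratio was -0.09 to 0.07.

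**Figure D5:**
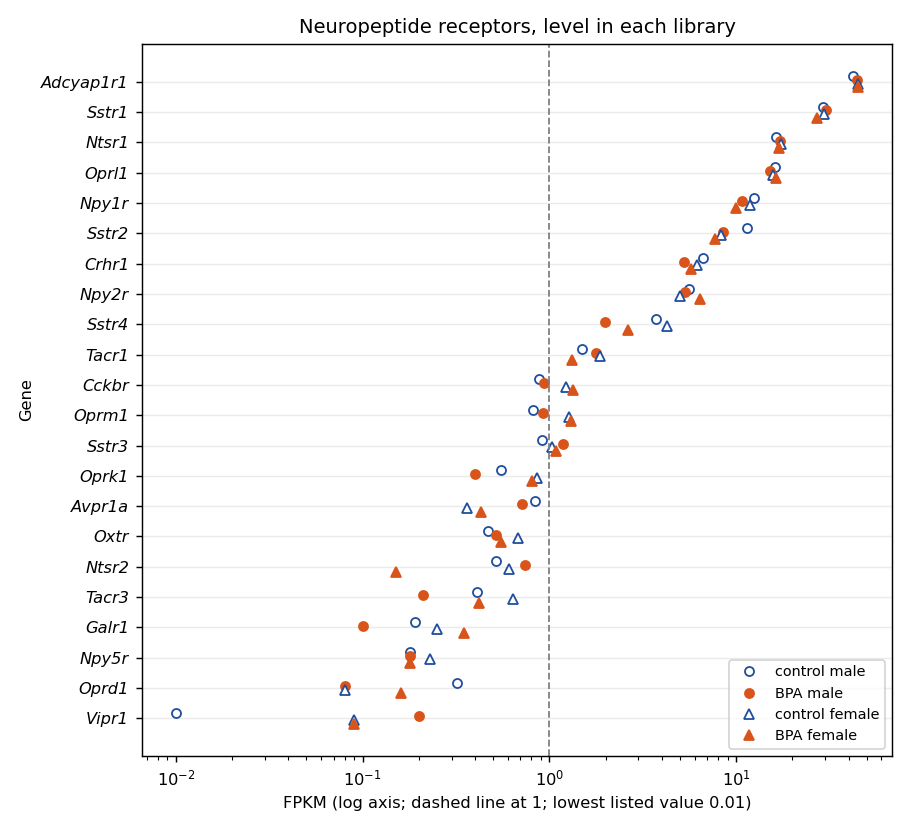
FPKM of each of the 22 receptors (log axis) in the 4 libraries, with symbols as for the precursors and a dashed line at 1 FPKM. Adcyap1r1, Sstr1, Ntsr1 and Oprl1 lie between 15.3 and 45.1 FPKM with the libraries close together, Sstr4 shows both BPA libraries left of both controls, and 9 receptors lie below 1 FPKM in every library.

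Of the somatostatin receptors, Sstr4 was at 3.72, 1.99, 4.27 and 2.65 FPKM, from 62, 33, 69 and 43 fragments. Both BPA libraries were below both controls (log2 ratio -0.76 in males, counting interval -1.55 to -0.27, and -0.60 in females, -1.27 to -0.12; limma -0.68, SE 0.20, adjusted p 0.191). Sstr1, the most abundant of them, was at 29.2, 30.2, 29.6 and 27.0 FPKM, and the groups overlapped (limma -0.04, SE 0.08, adjusted p 0.821). Sstr2 was at 11.4, 8.53, 8.32 and 7.68 FPKM, where control male alone was high (log2 ratio -0.40 in males and -0.11 in females; limma -0.25, adjusted p 0.457, or -0.04, adjusted p 0.943, without control male). Sstr3 was at 0.91, 1.19, 1.03 and 1.08 FPKM, and both BPA libraries were above both controls by less than the counting error (limma 0.15, SE 0.30, adjusted p 0.821).

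Of the receptors for neuropeptide Y, Npy1r was at 12.5, 10.7, 11.9 and 10.0 FPKM. Both BPA libraries were below both controls (limma -0.22, SE 0.09, adjusted p 0.294). Npy2r was at 5.58, 5.33, 5.01 and 6.41 FPKM, and like its ligand it was highest in BPA female (log2 ratio 0.33 in females, counting interval 0.06 to 0.65, and -0.06 in males; limma adjusted p 0.676). Npy5r was near the lower limit, at 0.18, 0.18, 0.23 and 0.18 FPKM.

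Crhr1, the main cortical receptor for corticotropin-releasing hormone, was at 6.66, 5.29, 6.2 and 5.7 FPKM, with both BPA libraries below both controls (limma -0.21, SE 0.12, adjusted p 0.429). Ntsr1, the high-affinity neurotensin receptor, was at 16.4, 17.3, 17.4 and 16.9 FPKM, and Oprl1, the nociceptin receptor, at 16.2, 15.3, 15.8 and 16.3 FPKM. In both, the libraries lay together and the groups overlapped (limma adjusted p 0.931 and 0.919). A further assembled transcript annotated as neurotensin receptor type 1, which is not a member, was at 0.62, 0.51, 1.46 and 1.74 FPKM. Cckbr, the brain receptor for cholecystokinin, was at 0.88, 0.94, 1.23 and 1.33 FPKM, and the groups overlapped (limma 0.07, SE 0.32, adjusted p 0.930).

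The receptors of social peptides were scarce. Oxtr, the oxytocin receptor, was at 0.47, 0.52, 0.68 and 0.55 FPKM, and Avpr1a, the vasopressin receptor of the brain, at 0.84, 0.71, 0.36 and 0.43 FPKM. Both were below 1 FPKM in every library and outside the fit. Their counting intervals for BPA to control, -0.75 to 1.01 in males and -1.11 to 0.49 in females for Oxtr and -1.62 to 1.08 and -1.72 to 2.31 for Avpr1a, included 0. Vipr1, a receptor for vasoactive intestinal peptide, was at 0.01, 0.20, 0.09 and 0.09 FPKM, from an estimated 0, 9, 4 and 4 fragments. Its counting interval began at 0.99 in males, above 0, and ran from -2.43 to 2.42 in females. The mu and kappa opioid receptors Oprm1 and Oprk1 stayed between 0.40 and 1.31 FPKM. The delta opioid receptor Oprd1, the second neurotensin receptor Ntsr2, the galanin receptor Galr1 and the neurokinin B receptor Tacr3 were all between 0.08 and 0.74 FPKM, and Tacr1, the receptor for substance P, was between 1.32 and 1.87 FPKM. Of the precursors not yet given, Grp, which encodes gastrin-releasing peptide, was between 14.7 and 19.4 FPKM, with overlapping groups (limma adjusted p 0.958). Gal, which encodes galanin, was between 0.69 and 1.86 FPKM, with the male libraries above the female ones. Trh, which encodes thyrotropin-releasing hormone, was at 1.36, 1.13, 0.66 and 0.16 FPKM, from an estimated 17, 14, 8 and 2 fragments.

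The 5 members with TGACGTCA in a promoter (Cartpt, Scg2, Sst, Sstr2 and Vgf), whose sequences are printed above, were all lower with BPA in both sexes, with a median limma difference of -0.32. Of the 20 fitted members with a promoter and without the element, 5 were lower and 5 higher in both sexes, with a median of 0.00. Members with no promoter entry, among them Chga and Crh, were in neither set. The limma difference of Sstr2 was -0.04 without control male. The same split over all fitted genes did not go that way. Of 307 genes with the element, 103 (33.6%) were lower and 107 (34.9%) higher in both sexes, with a median of 0.01, and of 8388 genes without it, 3495 (41.7%) were lower and 2180 higher, with a median of -0.04. Immediate early genes were at a summed 32.1, 29.6, 38.5 and 26.3 FPKM, with 7 of 12 lower in both sexes. The 40.1% of all fitted genes that were so is not a like share, because only 6 of the 12 were fitted. In limma 0 of those 6 were called. The part of the immediate early genes in the members' values was not tested.

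Other genes of the pathway were read from lists. Of 22 genes of peptide processing and release, 20 had a row, 19 were fitted and 0 passed the adjusted threshold in limma. At an unadjusted p below 0.05, 1 of 19 was higher and 3 were lower (5.31% and 12% of all genes), and the list's median difference was -0.03. Cpe, which encodes carboxypeptidase E, was at 367, 378, 386 and 366 FPKM, and the convertase gene Pcsk2 at 9.98, 12.1, 10.3 and 14.7 FPKM (adjusted p 0.202). Both were picked after their values were seen. Of 17 genes of peptide breakdown and binding, 16 were fitted and 0 passed, 6 of 16 being lower at an unadjusted p below 0.05, where 12% of all genes were. In both sexes 12 of the 17 were lower, where 40.1% of all fitted genes were, and the median difference over the list was -0.19 beside -0.04 over all genes. The 14 markers of meninges and vessel wall were lower in the same libraries, and their part in this list was not tested.

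Of 40 other neuropeptide genes, 28 had a row and 9 were fitted, and Penk, the enkephalin precursor, was the single one to pass. Of the 21 with a row in every library, 13 were lower with BPA in both sexes. The 40.1% of all fitted genes that were so is not a like share, because only 9 of the 21 were fitted. In males 1 of 26 was past 2-fold lower, where 2.53% of all rows were (1.15% with a Gene ID). In females 5 of 23 were, where 3.51% of all rows were (2.18% with a Gene ID). These 5, named after their values were seen, were Nmb, Edn1, Edn3, Gnrh1 and Rln1, scarce genes at 3.16 FPKM or less in control female and at 0.18 FPKM or less in BPA female, for which no counting interval was computed. Nmb, which encodes neuromedin B, was at 2.52, 1.99, 3.16 and 0.18 FPKM (limma adjusted p 0.306). Penk rose with BPA, at 13.9, 23.5, 14.5 and 21.5 FPKM, with a limma difference of 0.64 (0.73 in males and 0.56 in females), an SE of 0.08 and an adjusted p of 0.0460. This call, like every other of that fit, was lost without a filter on low values, without the trend, and without either BPA library, where 0 genes passed. Enkephalin is abundant in striatal projection neurons, and Penk is itself on the list of striatal markers, of which 10 of 15 were higher with BPA in both sexes. Among them the retinoid receptor gene Rxrg also rose (adjusted p 0.0253). The part of this marker list in the value of Penk was not tested. Of 55 other peptide receptors, 46 had a row, 20 were fitted and 0 passed, with 5 of 20 lower at an unadjusted p below 0.05, where 12% of all genes were. Nmbr, the neuromedin B receptor, was past 2-fold lower in both sexes at 1.70, 0.29, 2.49 and 0.95 FPKM (limma adjusted p 0.208).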

How the data were processed

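Polyadenylated RNA of 4 libraries (1 per sex and treatment) was analyzed. The deposited values are FPKM, which the authors calculated with RSEM after mapping to the rat genome with Bowtie 2. The submitters' processing notes also name HISAT and rn6, and versions are not given in the sources used here. No value is below 0.01, which stands in place of 0. Fragments were recovered from FPKM steps after taking 60 bases off each length, and 83.4 to 85.8% of 753 to 807 scarce rows came within 0.1 of a whole fragment. This gave exact (Clopper-Pearson) 95% intervals of a ratio within a sex. Depth recovery and limma were also run on simulated data. For limma these data held no difference between the sexes and no counting error, so that run checks the calculation only.

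Log2 ratios used FPKM + 0.5. limma 3.58.1 (R 4.3.3) with a trend in the prior variance and treatment as the only term left 2 residual degrees of freedom, and p-values were adjusted over all 13163 genes. The study's test on counting error alone was not used, because it leaves out the spread between libraries. Members, gene lists and tests were chosen with earlier results of these data known. Named by rule were members called between BPA and control, in either sex or in limma, and members at 1 FPKM or more on average with log2 ratios of at least 0.3 in the same direction in both sexes. The rule also took the 6 most abundant precursors and receptors, the oxytocin, vasopressin and corticotropin-releasing hormone pairs, and Sst, Npy, Vip and Cck with their receptors. Trh, called only between the sexes, was outside the rule. Listed genes were named when called in limma or past 2-fold in both sexes. Sequences and promoters came from RefSeq (GRCr8), where all 43 Gene IDs matched, and no coordinates of rn6 were used. Intervals were computed with scipy 1.17.1 (Python 3.11.15, pandas 2.3.3) and plots with matplotlib 3.10.9. Alternatives were other pseudocounts, filters, centring, Gene ID genes only, no trend, sex as a second term and leaving out each library.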

Additional observations from a re-analysis of the deposited data

How the results depend on the processing

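With a pseudocount of 0.1 in place of 0.5, 4 members were past 2-fold in males and 5 in females, and with a pseudocount of 5 there were 0 in each. Restricting to a mean of at least 1 FPKM left 0 in females. In limma, 0 members passed under 0.5, and 1 did (Cartpt, adjusted p 0.0442) among genes at 1 FPKM or more in every library and 3 (Cartpt 0.0115, Sst 0.0309 and Nts 0.0427) among genes with a Gene ID only, while those fits called 188 and 477 genes in all against 74. Sex as a second term, the only block possible because the labels carry no replicate number, called 0 members (lowest adjusted p 0.0828), with 86 genes in all. Leaving out each library called 0 to 0 members and 0 to 6 of all genes, with a lone library assumed to vary like the others. Without a filter and without the trend, 0 genes of any kind passed. Each symbol had 1 row, so that rows and symbols gave the same values. Among the 23 fitted members named by rule, centring turned the sign of the limma differences of Chga (to 0.050), Oprl1 (0.043) and Sstr1 (0.023). Among the same 23, leaving out each library turned the sign in 7, none of them called in limma, over ranges of -0.12 to 0.090 (Chga), -0.21 to 1.49 (Cort), -0.12 to 0.040 (Sstr1), -0.10 to 0.24 (Cckbr), -0.067 to 0.026 (Oprl1), -0.013 to 0.083 (Adcyap1r1) and -0.024 to 0.058 (Ntsr1). With 2 samples per treatment and 2 residual degrees of freedom, a member that missed the threshold is not shown to be unaffected, and ratios of members with few fragments have wide counting intervals.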
